A study of Mus musculus with 48 samples.

Results

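The oxidative phosphorylation system of the inner mitochondrial membrane is built from subunits of mixed origin. A few core subunits are encoded in mitochondrial DNA, and all others are encoded in the nucleus, translated in the cytosol and imported. Complex I oxidizes NADH, complex II oxidizes succinate, complex III passes electrons from ubiquinol to cytochrome c, complex IV (cytochrome c oxidase) hands them to oxygen, and complex V makes ATP from the resulting proton gradient. Neurons rely on this system for most of their ATP.

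The nuclear-encoded subunits were picked by gene symbol (Nduf followed by a, b, c, s or v and a number, Sdha to Sdhd, Uqcr, Cox4 to Cox8, and Atp5). The names matched 84 of the 21558 genes in the table, after 2 pseudogenes (Cox5b-ps and Ndufb1-ps) had been left out. By textbook assignment, 35 belong to complex I, 4 to complex II, 8 to complex III, 18 to complex IV, and 17 to complex V. Ndufa4 is counted with complex IV, to which it is now assigned. A further 2 are not subunits of a complex. They are Cox7a2l, a factor that joins complexes into supercomplexes, and Ndufa4l2, a hypoxia-induced relative of Ndufa4. The comparisons below test 82 of the 84, those with a mean of at least 0.5 RPKM over all libraries. RPKM is the read count of a gene scaled by its length and by the total of the library. Cox7b2 and Cox8c, both testis isoforms of complex IV, fell under that level.

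The data are RNA sequencing of hypothalamus from male mice of strain C57BL/6 (C57BL/6N in the design text), 48 libraries in all, each made from the pooled tissue of 3 mice. The 8 series of 6 libraries are, in the order used here, late noise unloaded, late noise free-moving, late quiet unloaded, late quiet free-moving, early unloaded a and b, and early free-moving a and b. Unloaded mice had their hind limbs lifted off the floor (hind limb unloading), which is used on the ground to mimic spaceflight, and the others moved freely. Late series carry an age of 3 months and early ones 2 months in the sample labels, while the design text gives 2 months for all. Noise series were kept at 85 dBA and 0.9 atm together, so sound and pressure cannot be told apart. Quiet series, which include all early ones, were kept at 10 dBA and normal pressure. The numbers 1, 5, 9, 13, 17 and 21 in the library titles have no unit in the labels. Period and age change together, and each late condition is a single series, so any other difference between such series cannot be told apart from the condition. Nothing in the labels says that the pools of a series came from separate experiments, so the p-values cover no more than the variation from pool to pool.

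Before the members, some facts of the libraries bear on every result. The estimated depth was 28.3 to 55.2 M (mega) reads, with a median of 38.0 M. The 13 mitochondrially encoded genes took 8.95% to 13.5% of all RPKM in late quiet free-moving libraries, and up to 62.4% in an early free-moving library. Early unloaded library a 9 held 12140 RPKM of anterior pituitary genes, against at most 66.2 RPKM in any other library. Early free-moving library a 1 stood above the other 5 of its series in complexes I, III and V. The summed level of 9 hypothalamic genes ranged from 1547 to 2572 RPKM in late quiet free-moving libraries and from 2338 to 11350 RPKM over the other 7 series. In pooled tissue, fewer cells of a type and less RNA per cell cannot be told apart.

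Complex IV held the most abundant members. Cox4i1, the ubiquitous isoform of subunit 4 (chromosome 8, 120668222 to 120674207, plus strand, GRCm38), had 498 to 1438 RPKM over the 48 libraries with a median of 1030 RPKM. Cox6a1 followed with a median of 770.3 RPKM and Cox8a with 730.2 RPKM. In complex V, Atp5b, the catalytic beta subunit, and Atp5e, the epsilon subunit of the central stalk, had medians of 539 and 524 RPKM. In complex III, Uqcrh, the hinge protein, led with 397 RPKM and Uqcrc2, core protein 2, was lowest with 51.3 RPKM. In complex I, Ndufb9, an accessory subunit of the membrane arm, had 366 RPKM and Ndufb2, another one, 20.1 RPKM. Complex II stood lower as a whole, from 43.2 RPKM for the membrane anchor Sdhc to 96.4 RPKM for the flavoprotein Sdha. The levels are per length of all annotated exons of a gene. They are low for genes with rare long exons, such as Atp5l, whose exons span 6443 bases against 544 bases for its main transcript.

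Where a complex IV subunit has tissue isoforms, the ubiquitous one dominated in each library. The muscle isoforms Cox6a2, Cox7a1 and Cox8b made up medians of 1.51%, 2.83% and 0.108% of the RPKM of their subunit. The lung and hypoxia isoform Cox4i2 made up 0.312% of subunit 4, within 0.0637% to 0.502% over the 48 libraries. The testis isoform Cox6b2 made up 2.0% and Ndufa4l2 0.825% beside Ndufa4. Cox8c was listed at 0 in every library outside early free-moving series a, where it reached at most 0.0281% of subunit 8. The c-ring of ATP synthase is made from 3 genes that encode the same mature peptide. Of their RPKM, Atp5g3 gave a median of 63.2%, Atp5g2 25.8% and Atp5g1 10.8%, and the share of Atp5g3 stayed within 58.8% to 67.2%.

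The letters before the start sites are shown for 4 members, a pair that rose and a pair that fell when noise was compared with quiet in free-moving mice. The windows come from RefSeq on GRCm38.p6, and 68 of the 84 members have an entry. Atp5a1, Atp5mpl, Cox4i1, Cox4i2, Cox6a2, Cox6c, Cox8c, Ndufa2, Ndufa4l2, Ndufb9, Ndufs1, Sdhc, Uqcrb, Uqcrc2 and Uqcrq were among those with no entry. Each stretch is 110 bases on the minus strand, 5′ to 3′, and ends before the first annotated base of the gene. Capitals mark letters found on either strand for nuclear respiratory factor 1 (GCGCANGCG) or ETS factors (CCGGAAG), both known regulators of respiratory chain genes. The stretches of Uqcr11, Atp5h and Sdha end 9, 43 and 40 bases before the RefSeq start, so some matches nearer to it are not shown. Counted from that start, these are GCGCANGCG at −5 in Uqcr11 and at −10 in Sdha, and CCGGAAG at −38 in Atp5h. Uqcr11, a small subunit of complex III, lies at chr10:80406831-80406940, and Atp5h, the d subunit of the peripheral stalk of complex V, at chr11:115419963-115420072. Sdha lies at chr13:74350281-74350390 and Sdhd, a membrane anchor of complex II, at chr9:50603850-50603959.
Uqcr11: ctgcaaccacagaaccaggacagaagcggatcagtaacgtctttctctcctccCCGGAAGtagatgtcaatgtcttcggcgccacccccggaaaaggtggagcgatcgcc
Atp5h: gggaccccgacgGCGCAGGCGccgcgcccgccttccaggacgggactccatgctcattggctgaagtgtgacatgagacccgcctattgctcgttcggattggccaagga
Sdha: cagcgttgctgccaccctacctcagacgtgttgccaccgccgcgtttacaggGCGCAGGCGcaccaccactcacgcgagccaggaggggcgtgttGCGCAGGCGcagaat
Sdhd: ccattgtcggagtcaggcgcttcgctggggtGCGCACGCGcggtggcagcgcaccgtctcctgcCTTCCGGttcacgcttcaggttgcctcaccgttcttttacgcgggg

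Both kinds of letters occurred in members of either direction. In windows from 250 bases before to 50 bases after the start, GCGCANGCG was found in 21 of 73 member windows (28.8%), against 12.1% of the windows of all tested genes and 6.25% of all 32851 windows. CCGGAAG was found in 17 (23.3%), against 15.5% and 8.86%. The YY1 letters AAGATGG were found in 11 (15.1%), against 6.51% and 6.34%. Of the members that rose with noise in free-moving mice and have a window, 15 of 48 held GCGCANGCG, as did 2 of the 4 that fell. Those 2 are Sdha and Sdhd. The 4 members shown above all hold GCGCANGCG, against 20 of the 68 members with a window, so they are not typical. A match says only that the letters are there.

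Complexes I, III, IV and V had their lowest median sums in the late quiet free-moving series. Complex I summed to 3691 to 5759 RPKM in late noise free-moving libraries (median 5452), against 2645 to 3415 RPKM in late quiet free-moving ones (median 3180). Complex III summed to 1292 to 1910 RPKM in the noise series and to 964 to 1179 RPKM in the quiet one. Complex IV summed to 3783 to 5177 RPKM in the noise series and to 2601 to 3530 RPKM in the quiet one. Complex V summed to 3182 to 4143 RPKM in the noise series and to 2566 to 3044 RPKM in the quiet one. None of these 4 sums overlapped between the series. Complex II differed from the others, with 254 to 329.7 RPKM under noise (median 267) and 303 to 353 RPKM under quiet (median 336), which overlapped. Its lowest medians over all 8 series were those of early free-moving series a and b, with 261 and 237 RPKM. Library 5 was the lowest of the noise free-moving series in complexes I, III, IV and V and the highest in complex II.

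**Figure D1:**
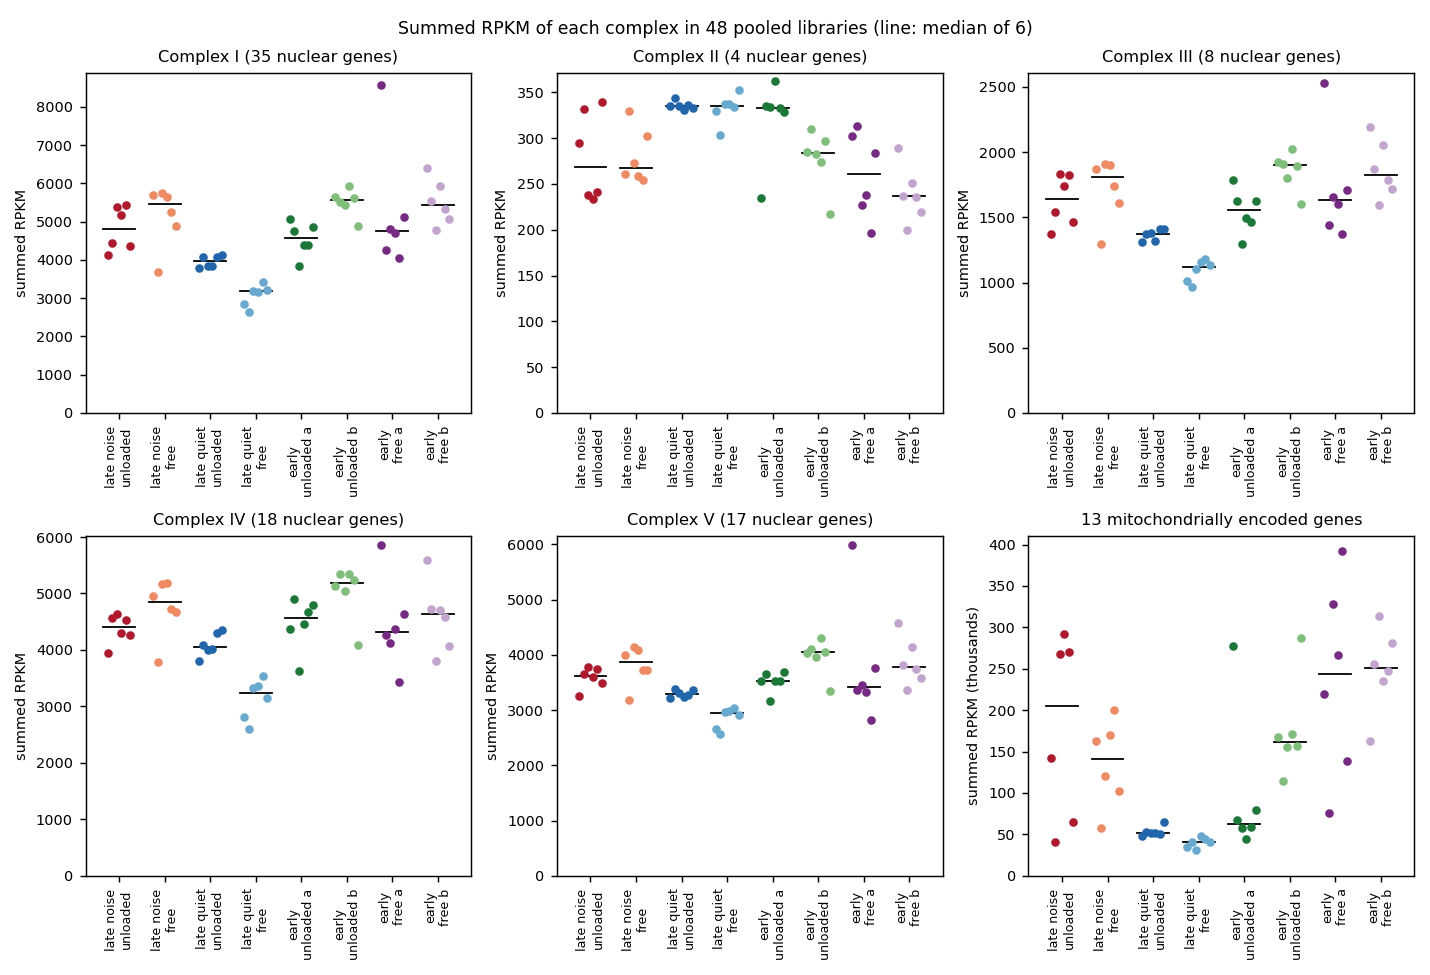
Summed RPKM (vertical axis, linear, from 0) of the nuclear members of complexes I to V and of the 13 mitochondrially encoded genes (axis in units of 1000 RPKM) in each of the 48 libraries, by series, with a line at the median of 6. Complexes I, III, IV and V are lowest in the late quiet free-moving series, complex I with a median of 3180, while complex II is at a median of 336 there and at 267 in the late noise free-moving series.

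Noise with low pressure was first compared with quiet in free-moving mice of the late period. Here 58 of the 82 members rose and 7 fell, where 21.2% of all 13685 tested genes rose and 36.4% fell. The median log2 change was 0.56 for the members and −0.15 for all tested genes. In complex I 25 of 35 members rose and 2 fell, in complex III 5 of 8 rose and 1 fell, in complex IV 13 of 16 rose, and in complex V 11 of 17 rose and 2 fell. Complex II was split, with 2 of its 4 members higher and 2 lower. For 53 members the 6 noise libraries did not overlap the 6 quiet ones, as for 32.6% of all tested genes, counting both directions.

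The rises of smallest p in their complexes included Ndufa6 and Uqcr10. Ndufa6, an accessory subunit of complex I with a LYR motif (chromosome 15, 82350140 to 82354322, minus strand), had 144 to 300.4 RPKM in noise libraries with a median of 241 RPKM, against 87.2 to 118 RPKM in quiet ones with a median of 108 RPKM. The groups did not overlap, library 5 was the lowest in both, and the log2 change was 1.11 ± 0.12 (SE; adjusted p = 1.56e-09, limma). Uqcr10, a small subunit of complex III (chromosome 11, 4701973 to 4704342, minus strand), had 206 to 415 RPKM with a median of 373 RPKM under noise, against 140.2 to 178 RPKM with a median of 163 RPKM under quiet. Its log2 change was 1.07 ± 0.13 (adjusted p = 3.82e-08, limma). Cox6c, a small regulatory subunit of complex IV, rose by 1.07 ± 0.14, and Atp5j2, subunit f of complex V, by 0.88 ± 0.12, neither with overlap. Ndufc1, an accessory membrane-arm subunit of complex I, rose by 1.03, and Uqcrq, a small subunit of complex III, by 0.99. Cox5b rose by 0.83, Atp5j by 0.64 and Cox7a2l by 0.66 (largest adjusted p of these 5, 4.86e-06, limma).

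The 7 members that fell belong to complexes I, II, III and V and include catalytic and core subunits. They are Uqcrc2, Sdha, Ndufs1, Atp5a1, Ndufa9, Atp5b and Sdhd, some of them chosen after their values were seen. Uqcrc2 (chromosome 7, 120635176 to 120659524, plus strand) had 36.4 to 88.1 RPKM in noise libraries with a median of 42.6 RPKM, against 95.9 to 106 RPKM in quiet ones with a median of 101 RPKM. Its log2 change was −1.03 ± 0.23 (adjusted p = 0.00022, limma). Sdha, which oxidizes succinate (chromosome 13, 74322254 to 74350280, minus strand), had 75.2 to 155 RPKM with a median of 84.9 RPKM, against 157 to 178 RPKM with a median of 166 RPKM, a change of −0.80 ± 0.17 (adjusted p = 0.00012, limma). Ndufs1, the largest iron-sulfur subunit of complex I, had 24.7 to 41.7 RPKM under noise (median 27.0) and 41.9 to 49.9 RPKM under quiet (median 47.3), with no overlap (−0.65 ± 0.12, adjusted p = 1.35e-05, limma). The catalytic subunits of ATP synthase, Atp5a1 and Atp5b, changed by −0.54 and −0.35, and their groups overlapped. In complex II Sdhb, the iron-sulfur subunit, rose by 0.37 ± 0.10 (adjusted p = 0.00178, limma) while Sdha fell. The 28 accessory members of complex I held 23 rises and 1 fall, and its 7 nuclear core members held 2 rises and 1 fall, with median changes of 0.75 and 0.14.

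**Figure D2:**
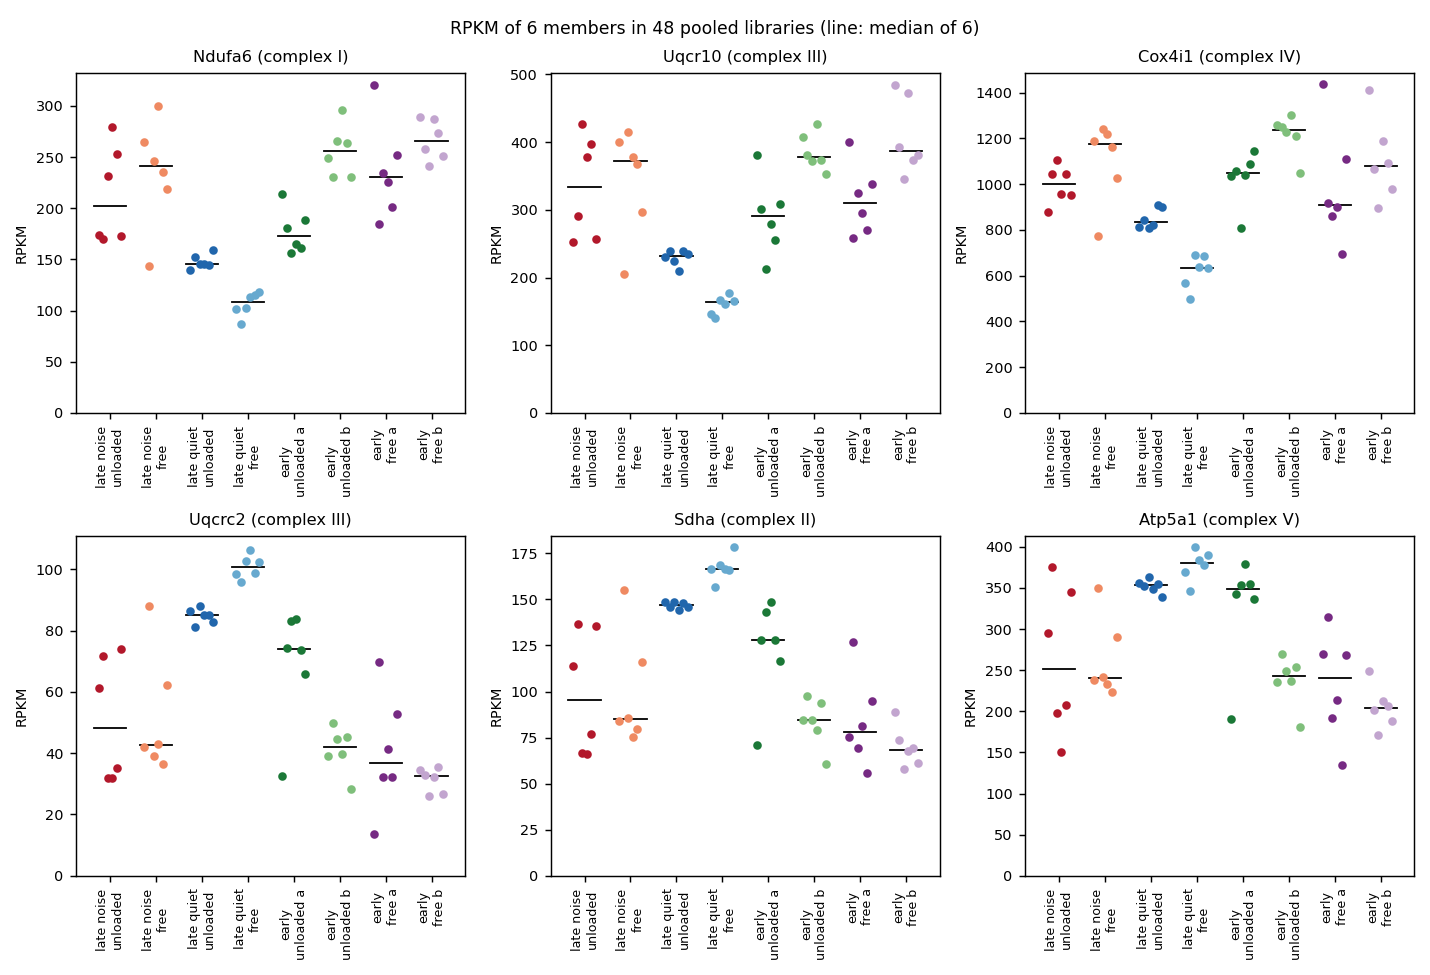
RPKM (vertical axis, linear, from 0) of Ndufa6, Uqcr10, Cox4i1, Uqcrc2, Sdha and Atp5a1 in each of the 48 libraries, by series, with a line at the median of 6. In the late quiet free-moving series Ndufa6, Uqcr10 and Cox4i1 have their lowest medians (108, 163 and 635) and Uqcrc2, Sdha and Atp5a1 their highest (101, 166 and 381).

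The same contrast in unloaded mice gave 23 members higher and 10 lower, where 6.75% of all genes rose and 45.6% fell. The median was 0.07 for the members and −0.28 for all genes. Ndufa2, an accessory subunit of the NADH-oxidizing part of complex I, had 289.9 to 546 RPKM in late noise unloaded libraries (median 349.9) and 191 to 236 RPKM in late quiet unloaded ones (median 212), without overlap (log2 change 0.83 ± 0.20, adjusted p = 0.0031, limma). Atp5e had 411 to 734 RPKM under noise (median 516) and 300.1 to 349 RPKM under quiet (median 315), also without overlap (0.74 ± 0.19, adjusted p = 0.00405, limma). Lower levels were seen for Uqcrc2, with 32.0 to 74.1 RPKM under noise (median 48.2) and 81.2 to 88.2 RPKM under quiet (median 85.1; −0.82 ± 0.23, adjusted p = 0.00484, limma). Sdha changed by −0.63 ± 0.17, again without overlap. Cox6c rose by 0.48 and Cox5a fell by 0.37, both with overlapping groups. The noise unloaded libraries differed widely in the mitochondrial share, with 10.5% in number 5 and 50.04% in number 13. With that share as a covariate no member was called, and 10, 4 and 16 were called without number 9, 13 or 17.

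Unloading in the late quiet series gave rises only. Of the 82 members 40 rose and 0 fell, where 9.38% of all genes rose and 3.38% fell, and the medians were 0.36 for members and 0.02 for all genes. By complex the rises were 18 of 35, 1 of 4, 3 of 8, 10 of 16 and 7 of 17 in complexes I to V. Cox5b, a zinc-binding subunit of complex IV, had 242 to 281 RPKM in unloaded libraries (median 262), against 156 to 221 RPKM in free-moving ones (median 188). The groups did not overlap and the log2 change was 0.50 ± 0.11 (adjusted p = 0.00229, limma). Atp5j, subunit F6 of the peripheral stalk of complex V, had 120.5 to 137 RPKM (median 126) in unloaded and 86.4 to 116 RPKM (median 99.9) in free-moving libraries (0.36 ± 0.08, adjusted p = 0.00248, limma). Ndufa6 rose by 0.47, Ndufb9 by 0.54, Uqcr10 by 0.52, Uqcrh by 0.45, Cox7a2 by 0.40, Atp5h by 0.42, Cox7a2l by 0.34 and Sdhc by 0.29, none with overlap. For 55 members the groups did not overlap, as for 24.6% of all tested genes, counting both directions. Of the members, 7 were called without number 5, 13 without number 13, and 19 without either number 17 or number 21. This contrast shares its free-moving series with the noise contrast above, and that series had the lowest levels.

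Under noise, unloading moved no member past the threshold. There 0.0146% of all genes rose and 0% fell, and the member and all-gene medians were −0.10 and −0.11. The smallest p belonged to Atp5j, with 114 to 152 RPKM in unloaded libraries and 130.5 to 175 RPKM in free-moving ones (log2 change −0.20 ± 0.08, adjusted p = 0.762, limma). Ndufb5 had −0.23 and Cox7b −0.21, with overlapping groups. The difference between the effects of unloading under noise and under quiet was tested itself. It was called for 15 members, all negative, where 0.482% of all genes were called higher and 3.9% lower. Atp5j differed by −0.56 ± 0.11 (adjusted p = 0.00335, limma), Cox5b by −0.62, Ndufb5 by −0.59, Ndufa6 by −0.61, Uqcrh by −0.58, Cox7a2 by −0.55 and Atp5g3 by −0.60. The count depended on single numbers: 5 members were called without number 1, 1 without number 13 or 17, 3 without number 21 and 2 without number 9. It was 39 without early unloaded library a 9 and early free-moving library a 1, which enter only through the shared title-number terms and estimate of spread.

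**Figure D3:**
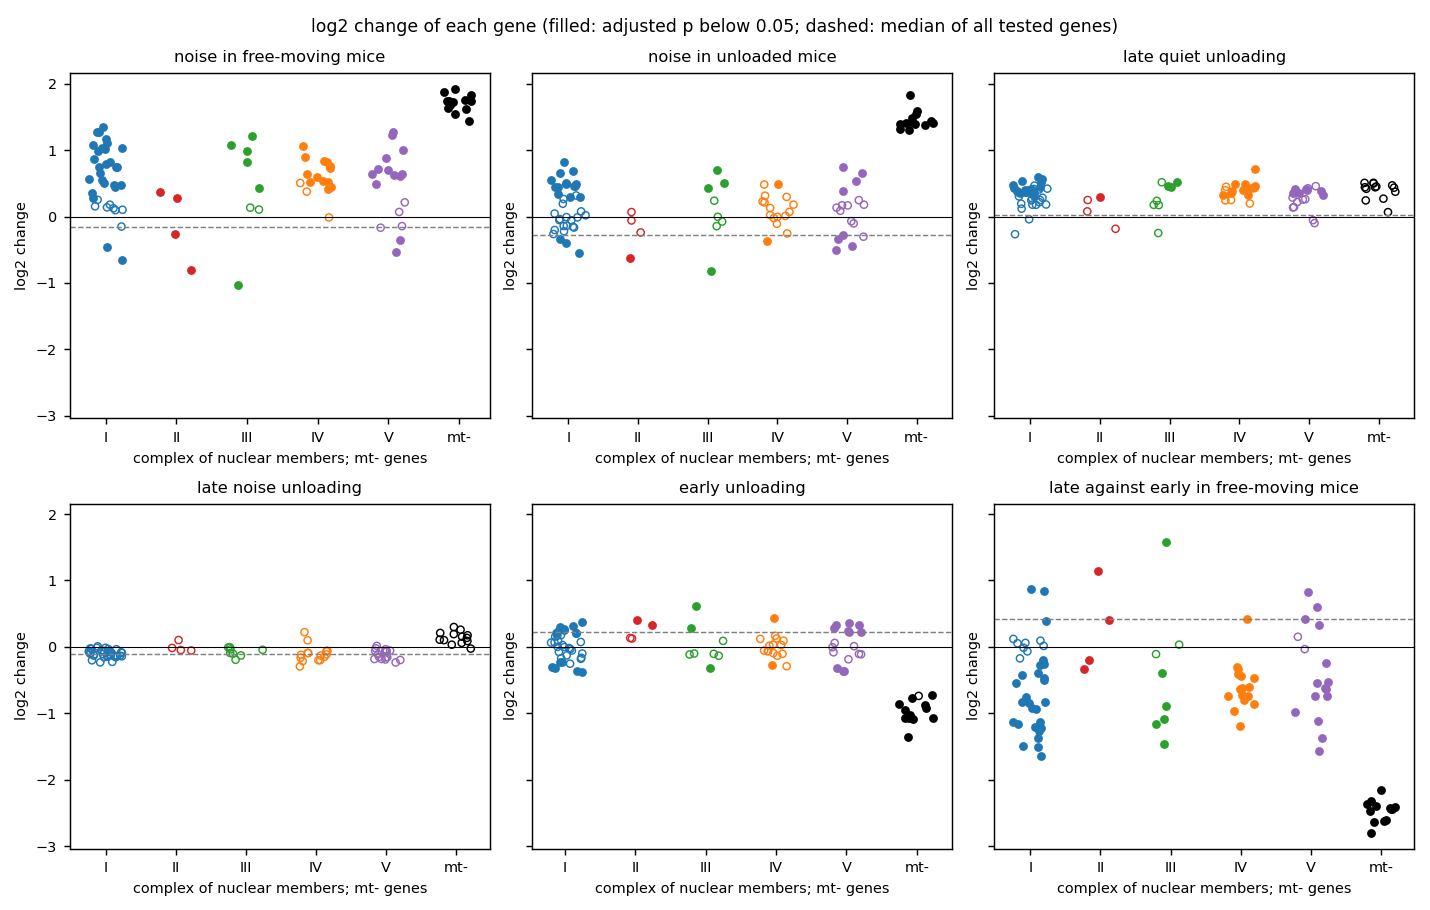
Each point is the log2 change of a gene (vertical axis) in 6 comparisons, for nuclear members by complex and for the 13 mitochondrially encoded genes (mt-). Filled points have an adjusted p below 0.05 and the dashed line is the median of all tested genes. Noise in free-moving mice has 58 members higher and 7 lower, while late noise unloading has no filled point.

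Early unloading set the mean of 2 unloaded series against that of 2 free-moving series. Here 22 members rose and 11 fell, where 50.9% of all genes rose and 1.88% fell, and the medians were 0.02 for members and 0.23 for all genes. Under other scalings the split turned round: quantile normalization gave 10 higher and 27 lower, where 11.1% of all genes were higher and 9.23% lower. A table without the mitochondrially encoded genes gave 13 and 26, where 21.8% and 5.24% of all genes were called. Uqcrc2 had the largest value among the members. It had 32.6 to 83.9 RPKM in unloaded series a and 28.4 to 49.8 RPKM in unloaded series b, against 13.6 to 69.9 RPKM in free-moving series a and 26.0 to 35.3 RPKM in free-moving series b. Its log2 change was 0.62 ± 0.16 (adjusted p = 0.00473, limma), with overlapping groups. Sdhd rose by 0.33, Sdha by 0.40, Cox5a by 0.44, Atp5b by 0.33, Atp5c1 by 0.32, Ndufa10 by 0.30, Ndufv1 by 0.31, Uqcrc1 by 0.28 and Ndufa4l2 by 0.32, and Cox6c fell by 0.27. No member was free of overlap. No member was called without number 9, without number 17, without unloaded series a, or with the mitochondrial share as a covariate, 14 rose and 2 fell without number 13, and 8 rose without free-moving series b. Without the libraries a 9 and a 1 named above 29 rose and 0 fell. The shares of all genes called in these fits with parts left out were not counted.

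Unloaded series a and b of the early period, which share all labels, differed among themselves. Series b was higher for 5 members and lower for 0, where 0.431% of all genes were higher and 0.402% lower. The 5 are Ndufa6, Ndufc1, Uqcrb, Cox6c and Atp5mpl. Ndufa6 had 230.1 to 296.5 RPKM in series b and 156 to 214 RPKM in series a, a log2 change of 0.53 ± 0.12 (adjusted p = 0.0405, limma) without overlap. Of the 82 members, 44 had an unadjusted p below 0.05 (limma), as did 29.6% of all tested genes. Without number 1 the count was 44, and without any other number it was 0. Free-moving series b against a gave 0 called members, where 0.0512% and 0.205% of all genes were called higher and lower. Cox8b had the smallest p there, with 0.749 to 2.66 RPKM in series b and 0 to 1.19 RPKM in series a (adjusted p = 0.0881, limma).

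Late quiet was then compared with early in free-moving mice. Of the members 11 rose and 58 fell, where 60.5% of all genes rose and 18.0% fell, and the medians were −0.54 for members and 0.43 for all genes. Ndufb7, an accessory subunit of complex I, had 94.5 to 125 RPKM (median 117) in late libraries, against 199.9 to 632 RPKM in early series a and 294 to 430.3 RPKM in early series b. It fell by 1.49 ± 0.14 on the log2 scale (adjusted p = 1.25e-11, limma). Atp5e fell by 1.57, Ndufa6 by 1.23, Cox6c by 1.20, Uqcr10 by 1.16, Uqcrq by 1.09, Atp5j2 by 0.98, Cox7a2 by 0.74 and Cox7a2l by 0.69. In the other direction Sdha had 157 to 178 RPKM in late libraries, against 56.0 to 127 RPKM in early series a and 58.2 to 88.8 RPKM in series b, a change of 1.15 ± 0.14 (adjusted p = 3.93e-09, limma). Sdhd rose by 0.41. Neither Ndufb7 nor Sdha overlapped between periods. Uqcrc2 rose by 1.58 ± 0.20 (adjusted p = 3.01e-09, limma), the highest value among the members. These counts moved little when a title number or an early series was left out.

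In unloaded mice late quiet against early gave 5 rises and 35 falls, where 38.8% and 8.53% of all genes rose and fell. The medians were −0.18 for members and 0.21 for all genes. Ndufa6 had 139.7 to 159 RPKM in late libraries, against 156 to 214 RPKM in early series a and 230.1 to 296.5 RPKM in series b (log2 change −0.52 ± 0.10, adjusted p = 0.00055, limma). Atp5e fell by 0.75, Uqcr10 by 0.53, Atp5mpl by 0.52, Uqcrq by 0.49, Ndufv3 by 0.49, Cox6c by 0.43, Cox7a2l by 0.40, Cox4i1 by 0.39 and Sdhb by 0.21, and Sdha rose by 0.56. Cox4i1 turned to 0.13 under quantile normalization. Without early unloaded series b no member was called. The effect of unloading in the late quiet series differed from that in the early series for 38 members upward and 4 downward, where 7.98% and 25.6% of all genes were called. This difference and that between noise and quiet both use the late quiet effect of unloading, with opposite sign. Ndufa6 differed by 0.70 ± 0.14 (adjusted p = 0.00123, limma), Cox6c by 0.77, Atp5j2 by 0.61, Uqcr10 by 0.62, Ndufs5 by 0.60, Uqcrh by 0.55, Atp5h by 0.50, Cox7a2 by 0.45 and Sdha by −0.59. Without early unloaded series a no member was called, and 14, 25 and 26 were called without early free-moving series b, number 9 or number 13.

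No member was called for a daily course over the title numbers. Taken as hours with a period of 24, which is an assumption, they gave 0 called members, where 1.76% of all genes were called. Cox6a2, the heart and muscle isoform, had the smallest p, with an amplitude of 0.35 on the log2 scale (adjusted p = 0.0995, limma).

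Most members have short transcripts, a property that the choice by name did not use. In the comparisons below their median changes followed length up to 4000 bases. The median main transcript was 764 bases for the 82 tested members and 2987.5 bases for all tested genes, and 53 of the 82 were at most 1000 bases long. Noise in free-moving mice changed members of at most 700 bases by a median of 0.71 (34 members) and all 316 tested genes of that length by 0.78. Above 700 and up to 1000 bases the medians were 0.65 for 19 members and 0.52 for all 550 genes. Above 1000 and up to 1500 bases they were 0.41 for 12 members and 0.28 for all 1287 genes. Above 1500 and up to 2500 bases they were 0.11 for 12 members and 0.02 for all 3152 genes. Above 2500 and up to 4000 bases they were −0.65 for 3 members and −0.23 for all 4027 genes. The 2 members above 4000 bases went the other way, with 0.41, against −0.47 for all 4342 genes. In late quiet unloading the shortest class had 0.41 for members and 0.36 for all genes, and in late against early free-moving mice −0.77 and −0.87. The 2 members above 4000 bases again differed from all genes. They had 0.25 against −0.15 in late quiet unloading and −0.35 against 0.85 in late against early free-moving mice. Genes of at most 1000 bases took 18.8% to 29.9% of the RPKM outside mitochondrially encoded genes in the late noise free-moving series, against 14.7% to 16.5% in the late quiet free-moving one.

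When the trend with length was taken out of each library, the members' medians moved closer to 0 in noise in free-moving mice, late quiet unloading and late against early free-moving mice. Noise in free-moving mice then gave 29 members higher and 20 lower with a median of 0.04, where 26.8% and 28.9% of all genes were called. Late quiet unloading gave 3 higher and 1 lower with a median of 0.07, where 7.79% and 7.45% of all genes were called. Late against early free-moving mice gave 29 higher and 32 lower with a median of −0.01, where 36.5% and 33.7% of all genes were called. Noise in unloaded mice turned to 12 higher and 27 lower with a median of −0.08, where 15.4% and 15.2% of all genes were called, against 23 and 10 with a median of 0.07 on the deposited values. Late against early unloaded mice gave 19 higher and 18 lower with a median of 0.01, where 16.3% and 17.8% of all genes were called, against 5 and 35 on the deposited values. Single members were still called in noise against quiet in free-moving mice. Uqcrc2 had −1.08 (adjusted p = 1.19e-05), Sdha −0.63 (adjusted p = 1.44e-06), Ndufs1 −0.52 (adjusted p = 6.63e-07), Ndufc1 0.75 (adjusted p = 1.81e-06) and Ndufa6 0.43 (adjusted p = 4.55e-07, limma). Atp5j had 0.13 (adjusted p = 0.11, limma). This way of fitting was chosen with the data in view, and the part of RNA quality or library preparation in the length trend was not tested.

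**Figure D4:**
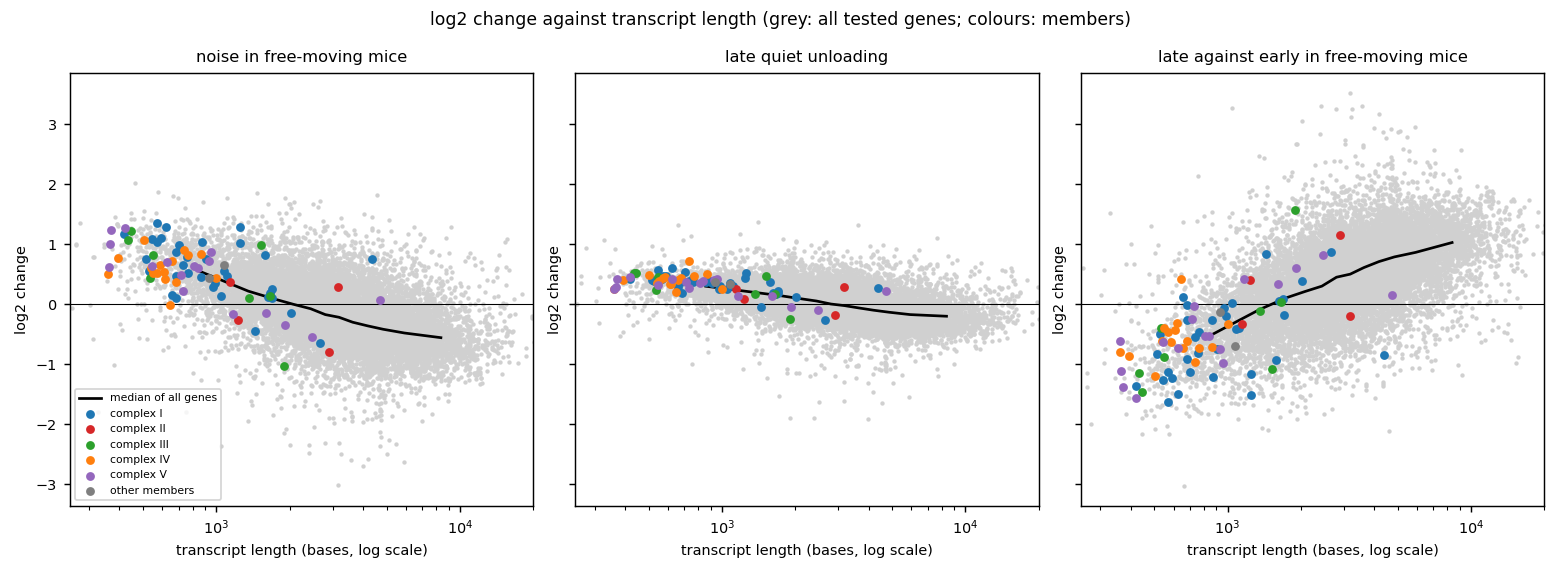
log2 change (vertical axis) against main transcript length in bases (horizontal axis, log scale) in 3 comparisons, with all tested genes in grey, their running median as a black line and the members coloured by complex. In noise in free-moving mice the members of at most 700 bases have a median of 0.71 and all genes of that length 0.78, and the long members Uqcrc2 and Sdha lie at −1.03 and −0.80.

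On the deposited scaling the 13 mitochondrially encoded genes had larger median changes than the members in the noise and period comparisons. With noise all 13 rose in both free-moving and unloaded mice, with medians of 1.74 and 1.41, against member medians of 0.56 and 0.07. mt-Nd1, a core subunit of complex I, had 6187 to 24090 RPKM in late noise free-moving libraries and 2978 to 5305 RPKM in late quiet ones, without overlap (1.75 ± 0.37, adjusted p = 0.00012, limma). mt-Co1, the catalytic subunit of complex IV, had 14210 to 47350 RPKM against 8909 to 12000 RPKM. All 13 fell in late against early mice, with medians of −2.45 in free-moving and −1.10 in unloaded mice. Early unloading lowered 12 of 13, with a median of −0.94. Of the nuclear members 22 rose and 11 fell there, where 50.9% of all genes rose and 1.88% fell. Under quantile normalization the median of the 13 was −0.13 in early unloading, and 10 members were higher and 27 lower. The noise and period medians of the 13 were then smaller than those of the members. With noise they were 0.14 in free-moving and 0.0 in unloaded mice, against 0.5 and 0.16 for the members. In late against early mice they were −0.12 in free-moving and 0.0 in unloaded mice, against −0.58 and −0.18. In late quiet unloading 0 of 13 were called, and 0 had an unadjusted p below 0.05 (limma). Their median was 0.44, against 0.36 for the nuclear members, of which 40 rose, where 9.38% of all genes rose. Standard errors were larger for the mitochondrially encoded genes: mt-Nd6 had 0.50 ± 0.36 and mt-Co2 0.51 ± 0.37, against 0.50 ± 0.11 for Cox5b. The groups overlapped for mt-Nd6 and did not for mt-Co2.

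Over the 48 libraries the RPKM of the mitochondrially encoded genes was 2.75 to 32.6 times that of the members together. The ratio was 4.61 to 12.5 in late noise free-moving libraries and 2.75 to 4.45 in late quiet free-moving ones. Members took 3.86% to 5.26% of the RPKM outside mitochondrially encoded genes in the noise series and 3.10% to 3.75% in the quiet one. Within series, and on a table without the mitochondrially encoded genes, 43 members rose and 21 fell with the mitochondrial share, where 12.1% and 50.5% of all genes did. On the deposited values 15 rose and 34 fell, where 3.61% and 74.8% of all genes did. Cox6c rose by 0.32, Uqcr11 by 0.36, Uqcr10 by 0.24 and Ndufa6 by 0.23 per doubling of the odds of the share, while Ndufa9 fell by 0.28, Atp5a1 by 0.25, Sdha by 0.25, Cox5a by 0.22, Atp5c1 by 0.16 and Sdhd by 0.10 (largest adjusted p of these, 0.000435, limma). With the share as a covariate, noise in free-moving mice gave 73 members higher and 2 lower, where 37.9% and 11.2% of all genes were called. This slope was chosen with the data in view.

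**Figure D5:**
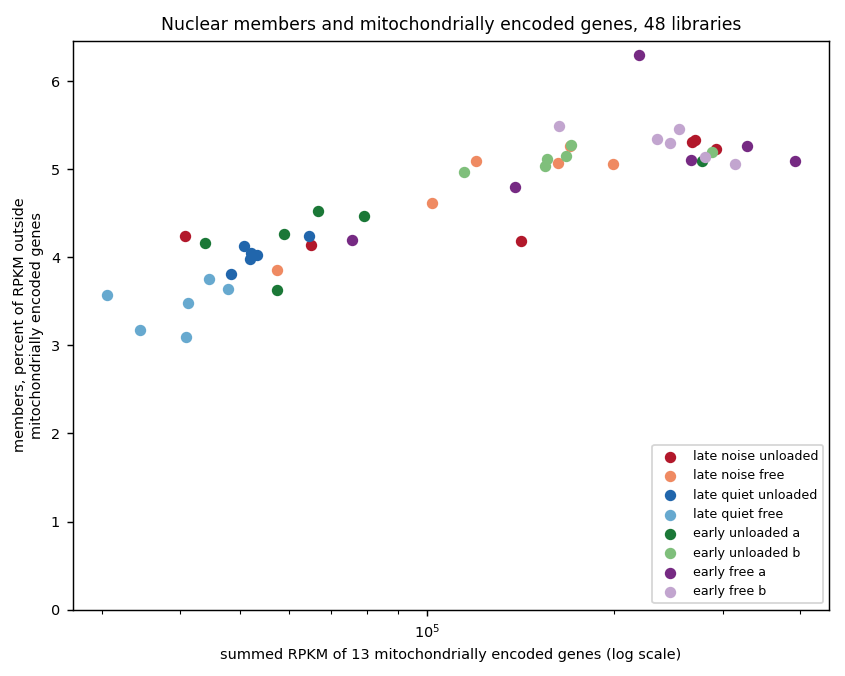
Members as a percent of the RPKM outside mitochondrially encoded genes (vertical axis, from 0) against the summed RPKM of the 13 mitochondrially encoded genes (horizontal axis, log scale), 1 point for each of the 48 libraries, coloured by series. The late quiet free-moving libraries have mitochondrial sums of 30540 to 47840 and member percents of 3.10 to 3.75.

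Other genes of the pathway were counted in the same comparisons. Of 14 regulators of mitochondrial biogenesis 0 rose and 6 fell with noise in free-moving mice, with a median of −0.29, where 21.2% of all genes rose and 36.4% fell. Esrrg, an orphan nuclear receptor, changed by −1.52 ± 0.19 and Ppargc1a, a coactivator of respiratory chain genes, by −0.98 ± 0.14 (adjusted p = 2.79e-08 and 3.78e-07, limma). Of 13 genes of the tricarboxylic acid cycle 1 rose and 8 fell, and Ogdh, of the oxoglutarate dehydrogenase complex, fell by 0.57. Of 44 tested assembly factors 17 rose and 12 fell. Uqcc3, a factor for complex III, rose by 1.01 and Ndufaf8, a factor for complex I, by 1.36. Atpif1, the inhibitor of ATP synthase hydrolysis, rose by 1.14. In late against early free-moving mice 13 of 14 regulators and 12 of 13 cycle genes rose and none fell, where 60.5% of all genes rose and 18.0% fell. In late quiet unloading 0 regulators rose and 3 fell, and 0 cycle genes were called in either direction, where 9.38% of all genes rose and 3.38% fell.

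Markers of cell types were counted for noise against quiet in free-moving mice. In that contrast 21.2% of all tested genes rose and 36.4% fell. Of 10 neuronal genes 0 rose and 8 fell, and they summed to 1240 to 1724 RPKM under noise and 1612 to 1963 RPKM under quiet. Of 8 astrocyte genes 1 rose and 5 fell, with sums of 673 to 807 RPKM and 811 to 872 RPKM. Of 8 oligodendrocyte genes 2 rose and 1 fell, with sums of 2325 to 2794 RPKM and 1783 to 2268 RPKM. Blood genes, mainly globins, rose for 4 of 5 and summed to 1128 to 2301 RPKM under noise and 627 to 1036 RPKM under quiet. Of 9 hypothalamic genes 5 rose and 1 fell, among them the hormones Avp (1.86) and Oxt (1.40). Of the choroid plexus, muscle and anterior pituitary genes tested, 0, 2 and 0 rose and 3, 0 and 0 fell. In late quiet unloading 2 hypothalamic genes rose and 1 astrocyte gene fell, and no gene of the other 6 lists was called. There 9.38% of all tested genes rose and 3.38% fell. None of the marker lists had a gene at 0 in all libraries. The part of these shifts in the members' changes was not tested.

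Some members share exons with neighbours. Uqcrc2 overlaps Pdzd9 over 19.7% of its exons, Ndufa13 overlaps Tssk6 over 30.0% and Ndufb6 overlaps Smim27 over 39.0%, all on the opposite strand. Ndufb9 overlaps Gm49356 over 19.5% of its exons on the same strand, where counting by strand would not separate them. The strand of counting is not given in the sources used here, so reads of such pairs cannot be told apart.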

How the data were processed

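The deposited RPKM values for 21558 genes in 48 libraries were used as they are, and 0 columns were left out. RPKM divides reads by gene length and library total, so a few abundant genes lower all others. Per the submitters' processing notes CASAVA 1.8 and HISAT were used; the HISAT version, genome build and annotation are named in none of the sources used. Depth was estimated from the steps between low RPKM values with GENCODE M21 exon lengths (63.3% to 69.2% of low values were whole reads within 0.02 reads, against 4% by chance).

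Differences were fitted with limma 3.58.1 in R 4.3.3 on log2(RPKM + 0.5) over the 13685 genes with a mean of at least 0.5 RPKM, with terms for series and title number (35 residual degrees of freedom) and a variance trend. A gene was called, or said to have risen or fallen, at a Benjamini-Hochberg adjusted two-sided p below 0.05 over all tested genes. log2 changes understate those of low genes. ± after a log2 value is the standard error. The fit was tested on simulated data. Members, lists and comparisons were chosen with earlier results of these data known. Named genes are, for each comparison, the 2 called members of smallest p in each complex, or 3 where none is called, and up to 2 per other list; any others were chosen after their values were seen. Some genes are not reported here by name. Early contrasts use the mean of series a and b.

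The labels do not say whether title numbers pair libraries. Deviations of libraries with the same number correlated with a median r of 0.08 (lowest −0.525, 168 pairs), against −0.017 for other numbers. No libraries were identical. Alternatives were a pseudocount of 0.1, no filter, quantile normalization, a table without mitochondrially encoded genes brought to a common sum, the mitochondrial share as a covariate, only the series compared, no title number term, and each number or early series left out. Length trend removal and leaving out 2 libraries were added later.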

Additional observations from a re-analysis of the deposited data

Results flagged for a closer look

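Some libraries stood apart from the other 5 of their series. The gap to the nearest library exceeded the share of 0.625 of the range (Dixon's 95% value for 6 values) in 11 of 48 groups of 6 examined. For a single group chance gives about 1 in 20. The 48 groups share their libraries and are not independent, so the count of 11 cannot be set against that rate. The mitochondrial share was 16.6% in late quiet unloaded 21, against 12.7% to 13.9% in the rest of that series. It was 48.2% in early unloaded a 1, against 11.2% to 18.5%, and 51.0% in early unloaded b 21, against 24.7% to 33.4%. Early free-moving a 1 was high in complex I (8580 RPKM, others 4052 to 5110), complex III (2527 RPKM, others 1373 to 1706) and complex V (5979 RPKM, others 2822 to 3768). Complex II was low in early unloaded a 1 (234.8 RPKM, others 328.1 to 362.6). Complex IV was low in late noise free-moving 5 (3783 RPKM, others 4674 to 5177) and early unloaded b 21 (4094 RPKM, others 5044 to 5353). Complex V was low in early unloaded a 9 (3156 RPKM, others 3518 to 3684) and early unloaded b 21 (3339 RPKM, others 3960 to 4300). Early unloaded a 9 is the library rich in pituitary genes.

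The effect of unloading differed between conditions by the interaction term of the limma fit. Both interaction terms contain the difference between the late quiet unloaded and late quiet free-moving series, with opposite sign. The lists are therefore not independent of each other, and members named in both are not separate results. The members below were named by their smallest p in that same term. Under noise less quiet the difference on the log2 scale was −0.56 for Atp5j, −0.59 for Ndufb5, −0.61 for Ndufa6 and −0.58 for Uqcrh. It was −0.62 for Cox5b, −0.55 for Cox7a2 and −0.6 for Atp5g3. In the late quiet less the early series the difference was 0.7 for Ndufa6, 0.6 for Ndufs5, 0.62 for Uqcr10 and 0.55 for Uqcrh. It was 0.77 for Cox6c, 0.45 for Cox7a2, 0.61 for Atp5j2, 0.5 for Atp5h and −0.59 for Sdha. What sets these conditions apart beyond the labels was not tested.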

How the results depend on the processing

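Counts are members called of 82. Here and above, the share of all tested genes called was counted for only some of the alternatives. Where it is not given, a count cannot set the members apart from all genes. With the mitochondrial share as a covariate they were 0 in early unloading (Sdha −0.01), 63 in late quiet unloading, 0 for noise in unloaded mice (Cox5a 0.12), 51 for unloading by noise, 2 and 0 for series b against a (free-moving, unloaded), and Sdhd had −0.15 in late against early free-moving mice. Fitting only the series compared gave 75 in late quiet unloading, 44 for unloading by noise and 11 for unloaded b against a. With the length trend removed they were 4 in late quiet unloading, 2 and 23 for unloading by noise and by period, 9 and 14 for series b against a, and 1 for rhythm. Of all genes, 2.43% were then higher and 2.83% lower for unloading by noise, and 12.6% and 12.6% by period. For series b against a the shares were 2.7% and 4.09% in free-moving and 2.79% and 2.7% in unloaded mice. For rhythm 3.89% were called. Quantile normalization gave 3 and 37 for series b against a, 1 for rhythm, and Cox4i1 0.13 in late against early unloaded mice. Without mitochondrially encoded genes they were 6 for unloading by noise, 2 and 37 for b against a, and 1 for rhythm. Without early free-moving b they were 8 in early unloading and 14 for unloading by period, and without early unloaded a 0 in both (Cox6c 0.02). Without early unloaded b late against early unloaded mice gave 0. Unloaded b against a gave 1 with a pseudocount of 0.1 and 0 without a filter. Without early unloaded a 9 and early free-moving a 1 they were 39 for unloading by noise, 1 for unloaded b against a and 1 for rhythm. The slope of Cox7a2l was −0.06 on the deposited values. The labels do not say whether the title numbers pair libraries, and whether each library correlated best with its own number was not examined. Without the replicate block the counts were 33, 39, 0, 66, 32, 69, 39, 13, 40, 0 and 0. The order is early, late quiet and late noise unloading, then noise and late against early, each in free-moving and unloaded mice. Unloading by noise and by period follow, then b against a in free-moving and unloaded mice. Leaving out 1 number gave 0 to 42, 7 to 38, 0 to 0, 61 to 65, 4 to 40, 63 to 69, 32 to 37, 1 to 14, 25 to 41, 0 to 1 and 0 to 44 in that order, 0 to 1 for rhythm and 58 to 59 for the slope. In noise in free-moving mice and late against early free-moving mice the total called stayed within 1.5 times under each alternative run, but the split into higher and lower moved, to 29 and 20 and to 29 and 32 with the length trend removed and to 73 and 2 and to 2 and 72 with the covariate, against 58 and 7 and 11 and 58. The cause of these shifts was not tested.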
